A study of Homo sapiens with 17 samples.

Results

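The genes described here are 7 receptors of the tumor necrosis factor (TNF) superfamily: TNFRSF10A, TNFRSF10B and TNFRSF10D, which bind the ligand TRAIL, FAS, which binds FAS ligand, TNFRSF1A, the main receptor for TNF, TNFRSF21, also known as death receptor 6, and TNFRSF12A, the receptor for the ligand TWEAK. They were picked by symbol from the 19222 genes counted after 1 h of treatment, and the group was built around TNFRSF10D because its level was lower in the emetine libraries of this same experiment. The emetine values of TNFRSF10D therefore chose it and are given as a description without a test. The cells were HEK-293T, a transformed human embryonic kidney line, and emetine is an alkaloid that stops ribosomes from moving along mRNA. In the 1 h experiment, 3 libraries came from cells with 500 µM s4U, a uridine analog that marks new RNA, 3 from cells with s4U and 1.8 µM emetine, and 1 untreated and 1 emetine-treated library from cells without s4U. In the 2 h experiment, with 250 µM s4U, emetine was absent from 3 libraries and present at 1.8 µM in 3 and at 240 µM in 3 others.

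Death receptors carry a stretch in their cytoplasmic tail, the death domain, that recruits adaptors such as FADD or TRADD and, through them, initiator caspases that start apoptosis. TNFRSF10A and TNFRSF10B signal in this way when TRAIL binds, whereas TNFRSF10D has a truncated death domain and TNFRSF10C has none, so that both are known as decoy receptors for the same ligand. FAS, TNFRSF1A and TNFRSF21 have death domains, and TNFRSF1A also drives NF-κB signaling through TRAF2 and ubiquitin ligases. TNFRSF12A has a short tail without a death domain that binds TRAF proteins.

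In GENCODE 44 on GRCh38, the build named hg38 by the submitters, TNFRSF10D lies on the minus strand of chromosome 8 (chr8:23135588-23164027) between TNFRSF10C and TNFRSF10A. Its canonical transcript has 9 exons and 3535 bases, of which 2282 are 3′ UTR and 1161 are coding. TNFRSF10B (chr8:23020133-23069031) and TNFRSF10A (chr8:23190452-23225102) are in the same cluster and on the same strand. FAS is at chr10:88953813-89029605, TNFRSF1A at chr12:6328757-6342114, TNFRSF12A at chr16:3018445-3022383 and TNFRSF21 at chr6:47231532-47309905. Although the TRAIL receptors are paralogs, no stretch of 50 bases of the TNFRSF10D transcript occurred in another member or in TNFRSF10C, and 0.83% of its stretches of that length occurred in another annotated gene.

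Sequencing depth at 1 h was 27416189 to 48852046 reads per library, and 81.1% to 82.3% of them could be placed in a single gene. Emetine replicate 3 stood apart from the other libraries, with an SD of 0.271 of its log2 levels around the group mean, against 0.114 to 0.168 in the other libraries with s4U, and the deviations from the emetine mean were correlated across genes with transcript length in all 3 emetine libraries (Spearman's rho = 0.725 in replicate 3 and −0.627 and −0.631 in replicates 1 and 2), which share that mean. The main values of the receptors are also given without it. Of the markers of the HEK-293 lineage, all 6 were present, from VIM with a mean of 617.9 CPM (read counts scaled to library size) to PAX2 with 1.80 CPM in untreated cells. The summed level of 8 markers of other cell types was 7.83 to 8.42 CPM in the untreated and 8.56 to 12.1 CPM in the emetine libraries, nearly all of it MITF and COL3A1, while no read was listed for PTPRC and GATA1 and HBG1 was at 0 in the untreated libraries. Reads of these markers do not show that other cells were present, and their source was not tested.

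Without emetine, 6 of the 7 receptors were expressed. Per kb of canonical transcript, TNFRSF1A was the highest of them at 15.4 ± 1.32 CPM per kb (SD, n = 3), followed by TNFRSF10B at 10.96 ± 0.755, TNFRSF21 at 7.14 ± 0.329, TNFRSF12A at 6.88 ± 0.525, TNFRSF10D at 4.18 ± 0.156 and FAS at 0.708 ± 0.206 CPM per kb. The libraries of neighbors in this order did not overlap, other than those of TNFRSF21 and TNFRSF12A. TNFRSF10A had no read in any of the 3 untreated libraries, where 3 reads, the count that 0 reads still allows, would be 0.0824 to 0.135 CPM, and 4, 1 and 1 reads in the emetine libraries. It could not be compared. The decoy receptor TNFRSF10C had 5 to 10 reads in each library with s4U, although 8 to 33 further reads per library were shared between it and an overlapping gene and given to neither. Of the receptors for TRAIL, only TNFRSF10B and TNFRSF10D passed the count filter.

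TNFRSF10D, the decoy receptor, was lower in every emetine library than in every untreated one. It had 430, 508 and 305 reads in untreated replicates 1 to 3, or 15.4, 14.6 and 14.4 CPM, and 219, 209 and 137 reads in the emetine libraries, or 6.25, 5.22 and 5.14 CPM. Groups that did not overlap, in either direction, were found for 34.7% of all genes tested. The means were 14.8 ± 0.551 CPM (SD, n = 3) and 5.54 ± 0.618 CPM (SD, n = 3), a ratio of 2.67 between untreated and emetine. In these bulk libraries, fewer cells with the RNA and less RNA per cell cannot be told apart. The log2 fold change was −1.42 (SE 0.134) in the edgeR fit, the lowest of the 13776 genes tested, with ASPG next at −1.29 (SE 0.448). Without emetine replicate 3 it was −1.37. Scaling by spike-in reads in place of the gene counts raised the median log2 fold change of all genes to 0.71 from 0.03. TNFRSF10D was then at −0.71 (SE 0.491), below that median by nearly the same distance.

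In the cells without s4U, whose libraries belong to the experiment from which TNFRSF10D was chosen and are no separate support, it had 273 reads (11.6 CPM) in the untreated library and 121 reads (3.81 CPM) in the emetine library. The ratio of emetine to untreated was 0.329, with an exact 95% interval of 0.263 to 0.409 that covers counting error only, as there was 1 library of each kind and no test can be made.

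**Figure D1:**
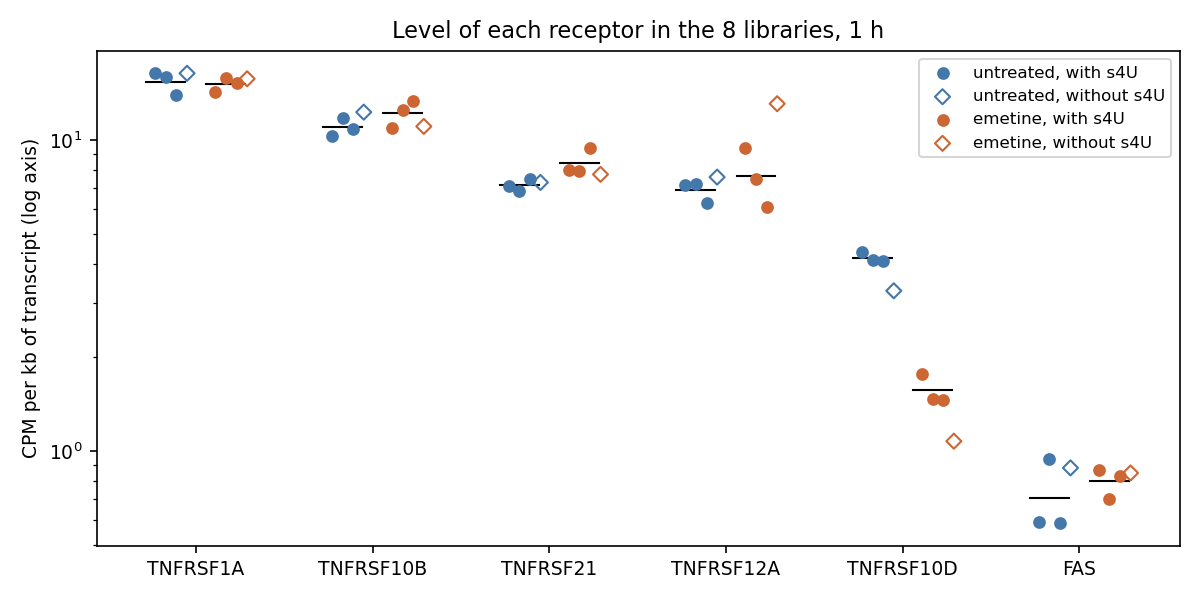
Level of 6 receptors in each library of the 1 h experiment, in CPM per kb of canonical transcript on a log axis. Filled circles are libraries with s4U, with a black line at the mean of 3, and open diamonds are the single libraries without s4U. TNFRSF10D is lower in emetine with and without s4U (5.54 against 14.8 CPM with s4U), whereas the groups lie close together for the other receptors, except for TNFRSF12A without s4U. TNFRSF10A is not drawn because it had 0 to 4 reads per library.

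The other receptors showed no change of level that passed the test. In edgeR's quasi-likelihood test, with Benjamini-Hochberg adjustment over all genes tested, 0 of 5 members other than TNFRSF10D passed an adjusted p of 0.05, where 2.69% of all genes did. At an unadjusted p under 0.05 there was 1 of the 5, TNFRSF21, beside 21.9% of all genes. DESeq2 also called 0 of the 5, beside 6.79% of all genes. These p-values measure the spread between libraries, which may be technical, since the labels do not say that the replicates were separate cultures. Without emetine replicate 3, the 5 log2 fold changes lay between −0.03 and 0.29, and 0 were called, beside 13.9% of all genes.

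TNFRSF10B, the signaling TRAIL receptor, had 41.1, 47.1 and 43.2 CPM in the untreated libraries and 43.6, 49.97 and 53.2 CPM in the emetine libraries. The groups overlapped, and the log2 fold change was 0.16 (SE 0.105, adjusted p = 0.377 in edgeR's quasi-likelihood test). Without s4U the order was the opposite, with 49.1 CPM untreated and 44.2 CPM in emetine. The signaling receptor TNFRSF10B and the decoy TNFRSF10D, whose genes start 95 kb apart, stood at means of 43.8 and 14.8 CPM in untreated and of 48.9 and 5.54 CPM in emetine-treated cells.

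FAS was at 2.19, 3.49 and 2.17 CPM in the untreated and at 3.22, 2.60 and 3.08 CPM in the emetine libraries. These values overlap and rest on 46 to 122 reads per library. Its log2 fold change of 0.16 (SE 0.239, adjusted p = 0.692 in edgeR's quasi-likelihood test) ran from −0.01 to 0.82 over the alternatives tried, so that no direction can be given.

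TNFRSF1A was at 35.6, 34.5 and 30.2 CPM without and at 31.0, 34.4 and 33.0 CPM with emetine. Here too the groups overlapped, and the log2 fold change was −0.03 (SE 0.101, adjusted p = 0.881 in edgeR's quasi-likelihood test). The single libraries without s4U held 35.5 and 34.1 CPM, close to those values.

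For TNFRSF21, the emetine libraries, at 28.7, 28.5 and 33.8 CPM, lay above the untreated ones, at 25.5, 24.6 and 26.9 CPM. It was the only other member past the count filter whose groups did not overlap, 1 of 5, and 34.7% of all genes tested had groups that did not overlap. The log2 fold change was 0.24 (SE 0.106, adjusted p = 0.228 in edgeR's quasi-likelihood test). Without s4U, the ratio of emetine to untreated was 1.06 (exact 95% interval 0.957 to 1.18).

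TNFRSF12A was at 6.99, 7.05 and 6.13 CPM untreated and at 9.22, 7.31 and 5.93 CPM in emetine, with the lowest value in emetine replicate 3. The log2 fold change of 0.16 (SE 0.182, adjusted p = 0.61 in edgeR's quasi-likelihood test) was 0.29 without that library and −0.02 without emetine replicate 1. In the cells without s4U, TNFRSF12A had 175 reads (7.42 CPM) untreated and 406 reads (12.8 CPM) in emetine, a ratio of 1.72 (exact 95% interval 1.44 to 2.07, counting error only). For TNFRSF10B the interval of this ratio was 0.832 to 0.973, and for FAS, TNFRSF1A and TNFRSF21 it included equal levels. With 1 library of each kind without s4U, whether the pair differs from the libraries with s4U could not be tested.

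The s4U label itself did not move a member past the threshold. In the edgeR fit of all 8 libraries with terms for emetine and for s4U, 0 of 6 members were called for s4U, and 0% of 14102 genes were. At an unadjusted p under 0.05 there were 2 of the 6, and 178 genes higher and 495 lower among all genes, while DESeq2 called 7 genes higher and 18 lower, none of them a member. Without emetine replicate 3, edgeR called 8 genes higher and 33 lower for s4U, and again 0 members. The 2 members were TNFRSF10D, with a log2 difference of 0.44 between libraries with and without s4U (SE 0.136, adjusted p = 0.886 in edgeR's quasi-likelihood test), and TNFRSF12A, with −0.48 (SE 0.191, adjusted p = 0.895).

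In TimeLapse sequencing, s4U in RNA made during the labeling hour is read as C in place of T, so that reads with conversions come from new transcripts. Reads with conversions were rare without the label. In the libraries without s4U, 1 of 3142 untreated and 2 of 4003 emetine reads of the members had 2 or more conversions, or 0.0318% (Wilson 95% interval 0.00562% to 0.18%) and 0.05% (0.0137% to 0.182%). With s4U, 98 of 430, 170 of 508 and 110 of 305 reads of TNFRSF10D had 2 or more conversions in the untreated libraries, and 69 of 219, 83 of 209 and 52 of 137 in the emetine libraries. The share of new reads, called the fraction new, was estimated from these counts with a mixture of a background rate of 0.0504% to 0.0521% of T positions and a rate of 8.49% to 9.53% for new reads.

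The receptors differed widely in the fraction new of untreated cells. TNFRSF12A had 39.1 ± 11.6% (SD, n = 3) and TNFRSF10D 35.5 ± 8.90%, above 91.3% and 89.2% of the genes tested. TNFRSF10B at 27.2 ± 6.53% and TNFRSF21 at 26.9 ± 5.55% came next, above 82.7% and 82.3% of the genes, and TNFRSF1A had 17.5 ± 4.04%. FAS had 9.66 ± 1.40% on few reads, close to the library medians of all genes tested, which were 9.26%, 12.3% and 14.7%. Under a steady state with labeling from the start of the hour, these fractions correspond to half-lives of 1.501 ± 0.548 h for TNFRSF12A, 1.67 ± 0.559 h for TNFRSF10D, 2.27 ± 0.577 h for TNFRSF10B, 2.29 ± 0.573 h for TNFRSF21, 3.77 ± 1.10 h for TNFRSF1A and 6.93 ± 1.13 h for FAS. The libraries of TNFRSF12A, TNFRSF10D, TNFRSF10B and TNFRSF21 overlapped in these values, and no order among those can be given. The untreated library with the lowest median over all genes, replicate 1, also had the lowest fraction new for TNFRSF10D, TNFRSF10B, TNFRSF21 and TNFRSF1A, and the one with the highest median, replicate 3, had their highest.

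With emetine, the fraction new of TNFRSF10D was no lower than without it. It was 26.1%, 36.6% and 43.8% in the untreated libraries and 37.6%, 40.9% and 50.4% in the emetine libraries. The groups overlapped, and the change in logit was 0.33 (SE 0.229), which is the natural log of the odds of a read being new. With each library left out in turn it lay between 0.11 and 0.51, at 0.18 without emetine replicate 3. The median change over all genes was −0.16.

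**Figure D2:**
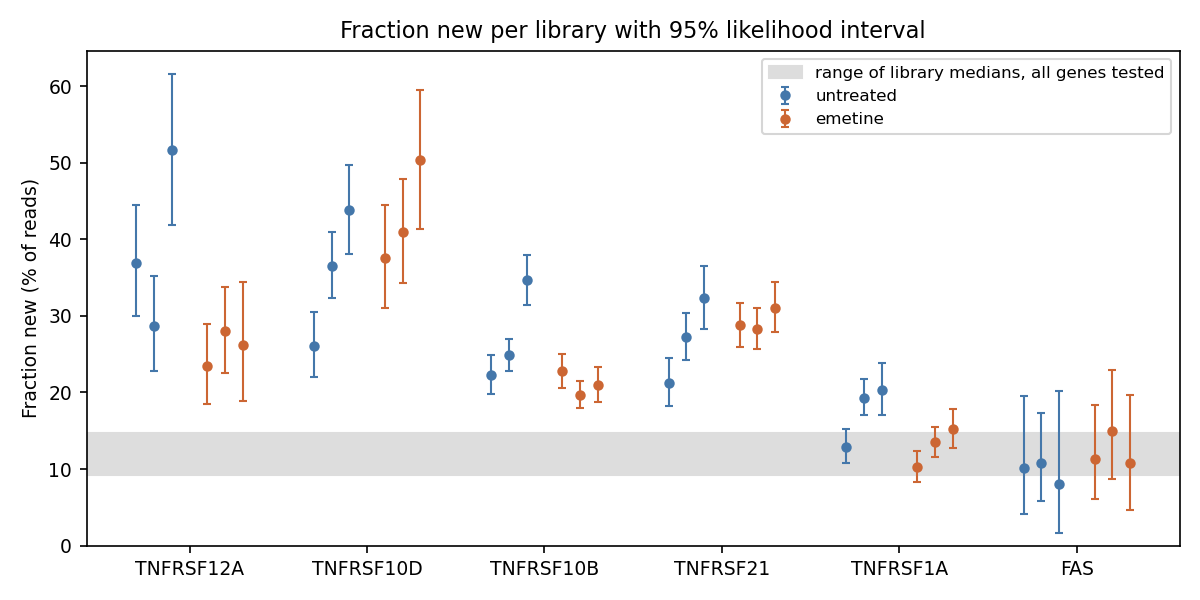
Fraction new of 6 receptors in each library with s4U, in percent of reads. Points are single libraries, bars their 95% likelihood intervals, which cover counting error only, and the gray band the range of the library medians over all genes tested. TNFRSF12A has lower values in all 3 emetine libraries (23.4% to 28.0%) than in the untreated ones, whereas TNFRSF10D does not (37.6% to 50.4%), and FAS lies near the band.

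For the other members, limma on the logit called 0 of 4 at an adjusted p of 0.05, where 5.05% of 10763 genes tested were called, and 1 of the 4, TNFRSF12A, at an unadjusted p under 0.05, beside 16.5% of all genes. TNFRSF12A had a fraction new of 37.0%, 28.7% and 51.7% untreated and of 23.4%, 28.0% and 26.1% in emetine. These groups did not overlap, which held for 1 of the 4 members and for 19% of all genes tested. The change in logit was −0.60 (SE 0.224, adjusted p = 0.114 in limma), and −0.61 (adjusted p = 0.341) without emetine replicate 3. The adjusted p was 0.0544 when only reads with 2 or more conversions were taken as new.

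TNFRSF1A had a fraction new of 12.9%, 19.3% and 20.3% untreated and of 10.3%, 13.5% and 15.2% in emetine, with a change in logit of −0.34 (SE 0.212, adjusted p = 0.451 in limma). It passed the threshold only when untreated replicate 1 was left out, with a change of −0.52 and an adjusted p of 0.0479 in limma. In that setting 23.8% of all genes were called. TNFRSF10B had 22.3%, 24.8% and 34.6% against 22.8%, 19.7% and 21.0%, a change in logit of −0.32 (SE 0.212, adjusted p = 0.505 in limma). TNFRSF21 had 21.2%, 27.2% and 32.3% against 28.7%, 28.3% and 31.1%, a change of 0.13 (SE 0.214, adjusted p = 0.839). Its emetine values lay close together within the wider range of the untreated libraries. FAS had under 100 reads in some libraries and was not tested, and its fraction new was 10.1%, 10.7% and 8.08% untreated and 11.3%, 15.0% and 10.8% in emetine, with intervals that overlap.

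Multiplying the level by the fraction new, or by the remainder, gives the level of labeled (new) and of unlabeled (older) RNA. For TNFRSF10D both were lower with emetine. Unlabeled RNA was at 11.4, 9.23 and 8.08 CPM in the untreated and at 3.90, 3.08 and 2.55 CPM in the emetine libraries, a ratio of 3.01 between the means. Labeled RNA was at 4.02, 5.32 and 6.30 CPM and at 2.35, 2.13 and 2.59 CPM, a ratio of 2.21. Neither pair of groups overlapped, and the share of all genes for which this held was not counted for labeled and unlabeled RNA. On the log2 scale with 0.5 CPM added, which understates the change of low genes, the unlabeled difference was −1.46 (SE 0.19), the lowest of 10763 genes, and the labeled difference was −0.98 (SE 0.266), at rank 22 from the lowest. Without emetine replicate 3 these differences were −1.33 and −1.04. As its unlabeled difference was the lowest, no other gene could have both differences at or below its own, and this adds no support. The medians of all genes were 0.04 for unlabeled and −0.14 for labeled RNA.

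**Figure D3:**
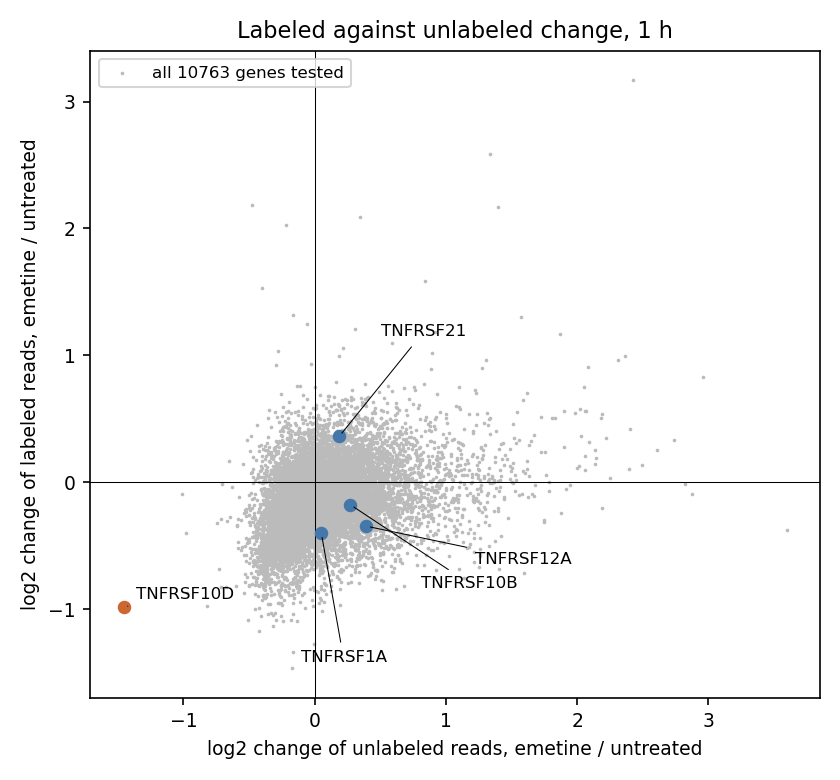
Change of labeled RNA against change of unlabeled RNA between emetine and untreated libraries, both on the log2(CPM + 0.5) scale, for 10763 genes (gray) and 5 receptors. TNFRSF10D lies alone at the lower left, at −1.46 for unlabeled and −0.98 for labeled RNA, and the other receptors lie within the cloud of genes.

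None of the other 4 receptors passed the test for labeled RNA, where limma called 0.892% of all genes, or for unlabeled RNA, where it called 7.38%, and 0 of the 4 had an unadjusted p under 0.05 in either, beside 12.2% and 26.5% of all genes. TNFRSF12A had a mean of 2.59 ± 0.573 CPM labeled RNA (SD, n = 3) untreated and 1.92 ± 0.324 CPM in emetine, and of 4.13 ± 1.06 CPM and 5.57 ± 1.36 CPM unlabeled RNA. Labeled TNFRSF1A RNA was at 5.79 ± 1.09 and 4.28 ± 0.970 CPM, and its unlabeled RNA at 27.6 ± 3.47 and 28.5 ± 1.05 CPM. TNFRSF10B had 11.9 ± 2.92 and 10.3 ± 0.733 CPM labeled and 31.9 ± 3.57 and 38.6 ± 4.38 CPM unlabeled RNA. In all 3 the mean of the labeled RNA was lower and that of the unlabeled RNA higher in emetine. For TNFRSF21 both means were higher, with 6.93 ± 1.66 and 8.95 ± 1.35 CPM labeled and 18.7 ± 1.18 and 21.4 ± 1.66 CPM unlabeled RNA. Adjusted p-values from limma ran from 0.569 to 0.848 for labeled and from 0.208 to 0.799 for unlabeled RNA.

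**Figure D4:**
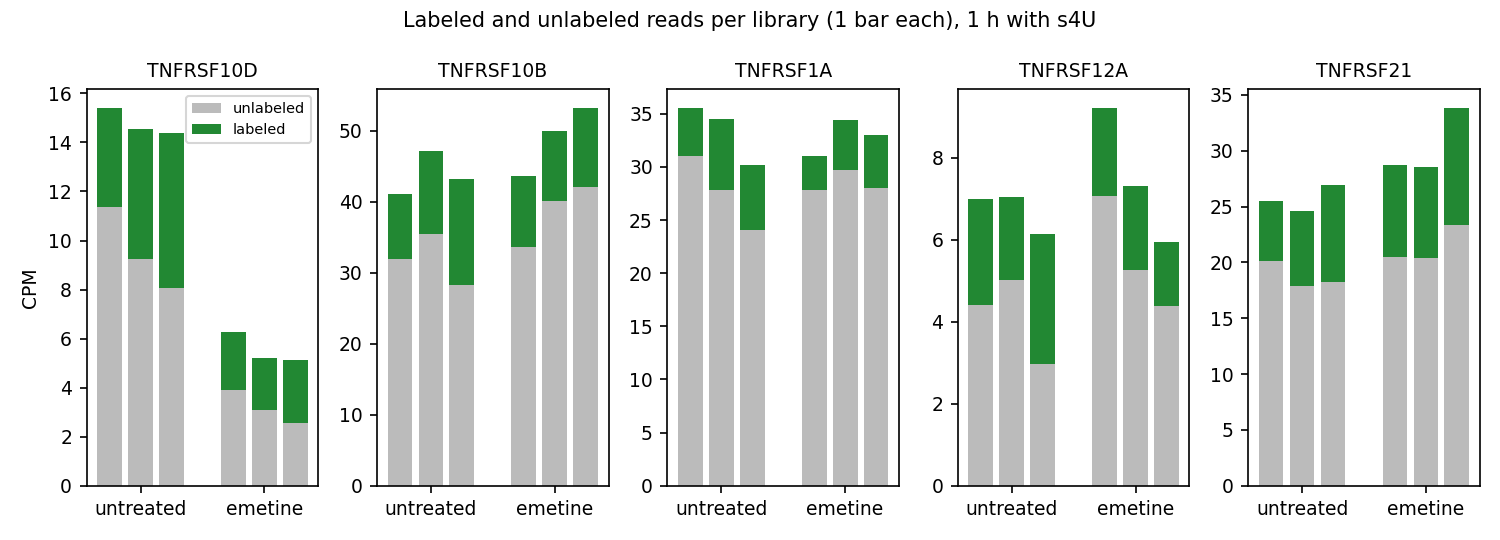
Labeled (green) and unlabeled (gray) RNA of 5 receptors in each library with s4U, stacked, in CPM, each panel with its own axis from 0. In each panel the 3 bars on the left are untreated replicates 1 to 3 and the 3 on the right emetine replicates 1 to 3. Both portions of TNFRSF10D are smaller with emetine, with unlabeled RNA at 2.55 to 3.90 CPM against 8.08 to 11.4 CPM.

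Of the 10 other protein-coding genes that start within 300 kb of the start of TNFRSF10D, 6 were tested, TNFRSF10B included. Of these, edgeR called 0, beside 2.69% of all genes, and also 0 at an unadjusted p under 0.05, beside 21.9%. RHOBTB2 had a log2 fold change of −0.01 (SE 0.167, adjusted p = 0.986), CHMP7, an ESCRT component whose gene starts 79.6 kb away, of 0.09 (SE 0.0822, adjusted p = 0.53), R3HCC1 of −0.25 (SE 0.124, adjusted p = 0.257), the lysyl oxidase homolog LOXL2 of −0.19 (SE 0.127, adjusted p = 0.381) and ENTPD4 of 0.15 (SE 0.119, adjusted p = 0.451). No count was listed for PEBP4 or for the gene ENSG00000284956 under those names.

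The genes nearest to TNFRSF10D over the 8 libraries included HSP70 chaperones. By Euclidean distance between log2(CPM + 0.5) values, each taken relative to the mean of the 3 untreated libraries with s4U, the 5 nearest of 13022 other genes were HSPA8 at a distance of 1.2, HSPA1B at 1.36, HSPA1A at 1.45, SNORD3A at 1.52 and RPS14P3 at 1.57. HSPA8, the constitutive cytosolic HSP70 chaperone, was at 2729 ± 160 CPM untreated and 1528 ± 125 CPM in emetine (SD, n = 3). HSPA1B, an inducible HSP70, was at 705.3 ± 28.8 and 429.8 ± 10.8 CPM. HSPA1A is a nearly identical copy whose reads cannot be fully told apart from those of HSPA1B, and it was at 3.09 ± 0.703 and 1.70 ± 0.517 CPM. SNORD3A, a small nucleolar RNA, and the pseudogene RPS14P3 were at 5.15 ± 1.71 and 7.53 ± 4.11 CPM untreated. Since the distance was computed from the emetine libraries as well, the lower levels of these genes are part of how they were found. The fraction new of HSPA8 was 12.6% and that of HSPA1B 8.63% in untreated cells, below the 35.5% of TNFRSF10D.

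In their 3′ UTRs the members differed in the number of ATTTA pentamers, the core of AU-rich elements, which are known in many short-lived mRNAs. Searched on the mRNA strand with overlaps counted, the 3′ UTR of TNFRSF10D held 12 ATTTA, or 5.26 per kb, more per kb than 92.6% of 11712 genes. TNFRSF21 held 6 (4.87 per kb), TNFRSF10A 5 (4.03 per kb), FAS 10 (3.83 per kb), TNFRSF12A 2 (3.59 per kb), TNFRSF10B 5 (1.97 per kb) and TNFRSF1A 0. The median of all genes was 1.79 per kb, and 76.1% of genes held at least 1. Whether the number of ATTTA goes with the fraction new of the members was not tested. A match in these letters is not a measured site.

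The other genes of the pathway were taken from 6 lists with 79 genes, of which 56 passed the count filter. In emetine, 2 rose and 0 fell in level at an adjusted p of 0.05, against 365 and 6 of all genes. At an unadjusted p under 0.05 there were 12 and 0 of the 56, against 2056 and 958 of all 13776 genes. Both were in the list of the TNF receptor complex and its ubiquitin ligases and kinases, where 18 genes were tested with a median log2 fold change of 0.20 against 0.03 for all genes. MAP3K14, the kinase NIK of non-canonical NF-κB signaling, rose to 22.1 ± 2.34 CPM from 9.61 ± 0.315 CPM (SD, n = 3), with a log2 fold change of 1.20 (SE 0.122, adjusted p = 0.00459 in edgeR's quasi-likelihood test). TRAF6, the ubiquitin ligase that links interleukin-1 and Toll-like receptors to NF-κB, rose to 32.1 ± 1.63 CPM from 19.0 ± 0.489 CPM, or by 0.75 on the log2 scale (SE 0.0957, adjusted p = 0.00863). Both calls were lost without untreated replicate 1, 2 or 3 at nearly the same size of change, with adjusted p-values of 0.0507 to 0.0904. Without emetine replicate 3, MAP3K14 was at 1.14 and TRAF6 at 0.72, both still called, and 9 of 56 list genes were called beside 13.9% of all genes.

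**Figure D5:**
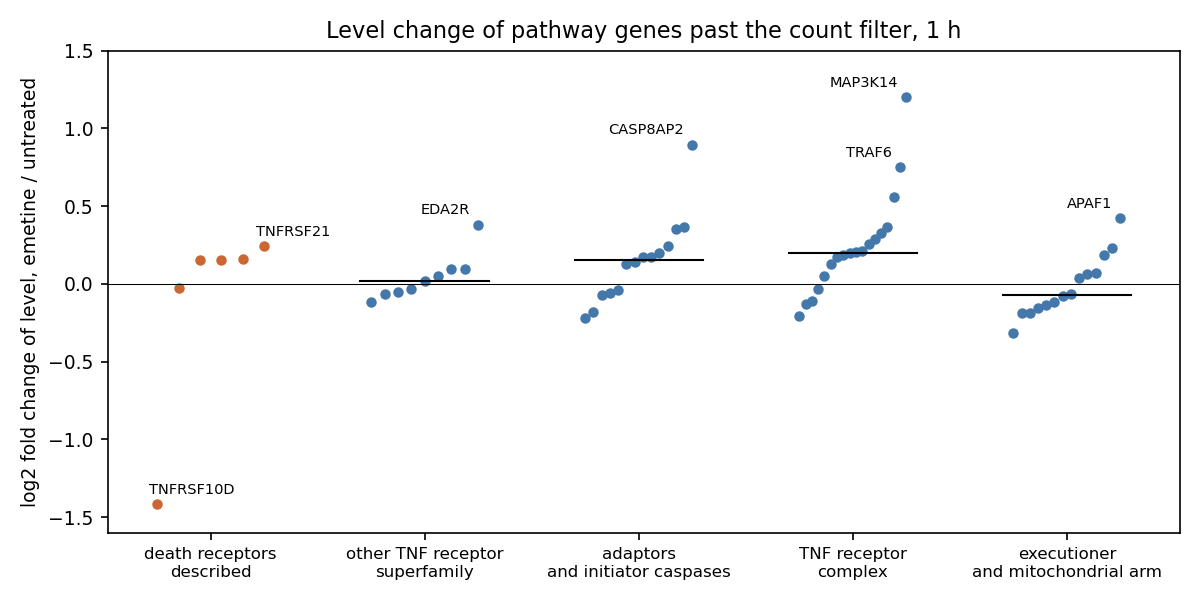
Log2 fold change of level between emetine and untreated libraries for 6 receptors and for the genes of 4 pathway lists past the count filter, each point 1 gene, with a black line at the median of a list. TNFRSF10D is at −1.42, below every gene of the lists. MAP3K14 at 1.20 and TRAF6 at 0.75 are the list genes called higher in edgeR, whereas CASP8AP2 at 0.90 was not called.

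The ligands were barely detected. Of the 8 ligands, 6 were in the table with a summed level of 0.831 to 1.36 CPM in the untreated libraries, TNFSF10, which encodes TRAIL, and TNF had no read in untreated libraries with s4U, and only TNFSF12, which encodes TWEAK, passed the filter, with a log2 fold change of −0.48 (SE 0.319, adjusted p = 0.377). Of the decoy receptors TNFRSF10C, TNFRSF6B and TNFRSF11B none passed, and the reads of TNFRSF6B are uncertain because more were shared with an overlapping read-through gene than given to it. Of 9 further receptors of the superfamily tested none was called, and EDA2R had the largest difference, 0.38 (SE 0.328, adjusted p = 0.487), which was 0.084 without untreated replicate 3. All 14 adaptors and initiator caspases were tested with 0 calls and a median of 0.16, and CASP8AP2, which binds the death effector domains of caspase 8, had the largest difference, 0.90 (SE 0.209, adjusted p = 0.0621 in edgeR). It passed with DESeq2 (adjusted p = 0.00236) and, without emetine replicate 3, in edgeR (adjusted p = 0.00128) with a smaller difference of 0.59. The 14 genes of the executioner and mitochondrial arm had a median of −0.07 and no call, with APAF1, the scaffold of the apoptosome, at 0.42 (SE 0.207, adjusted p = 0.256), and at 0.12 without emetine replicate 3.

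In fraction new, 4 of 49 list genes tested fell and 0 rose in limma, against 520 and 23 of all genes. FADD, the adaptor of FAS and the TRAIL receptors, fell to 22.1 ± 2.32% in emetine (SD, n = 3), against 41.4 ± 8.26% untreated, and its logit changed by −0.91 (SE 0.219, adjusted p = 0.00462). The death effector domain protein DEDD2 fell from 34.4 ± 5.21% to 18.5 ± 1.10% (change in logit −0.84, adjusted p = 0.00791), TRAF2, an adaptor of TNFRSF1A and TNFRSF12A, from 20.2 ± 6.64% to 10.9 ± 0.994% (−0.69, adjusted p = 0.0398) and MAP3K14 from 77.8 ± 9.49% to 50.1 ± 0.879% (−1.32, adjusted p = 0.000564). These calls depended on single libraries, and the share of all genes called moved with them. All 4 changes stayed negative with a library left out. Without untreated replicate 3, the library with the highest median fraction new, none of the 4 passed, beside 0.995% of all genes. The change of MAP3K14 was then −0.99 (adjusted p = 0.0596). The number of list genes called was 16 without untreated replicate 1, where 23.8% of all genes were called. It was 1 without untreated replicate 2, emetine replicate 1 or emetine replicate 2, beside 1.87%, 1.64% and 1.93% of all genes. Without emetine replicate 3 it was 2, beside 2.06%.

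At 2 h, 3 of the 7 members were among the 9982 genes of the tables, which list no gene with a mean under 114 normalized counts. The authors' mean over all 2 h libraries was 936 normalized counts for TNFRSF10B, 507 for TNFRSF21 and 236 for TNFRSF1A. Per kb of transcript these are 234, 141 and 109. The kit and the normalization differed from those at 1 h, and the mean includes treated libraries, so that no level was compared between the times. TNFRSF10D, TNFRSF10A, FAS and TNFRSF12A were not analysed at 2 h here.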

How the data were processed

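TimeLapse sequencing libraries of HEK-293T cells were grouped by the treatment, time, s4U and replicate number in their labels. Per the labels and the study's methods, the authors trimmed the reads of the 1 h experiment with cutadapt, aligned them to hg38 with the conversion-tolerant version of HISAT, processed them with SAMtools and tallied conversions with bam2bakR. The values deposited for this experiment are whole counts of reads per library, gene, T number and conversion number, and are not normalized. The TruSeq Stranded mRNA kit was used at 1 h and a SMARTer total RNA kit at 2 h. At 2 h, the authors used htseq-count for counting and DESeq2 with spike-in size factors for normalization. The signal values taken from these tables are the authors' mean of normalized counts over all 2 h libraries. The other columns hold the authors' log2 fold changes, standard errors, test statistics and p-values, which were not used, nor was the deposited table of size factors. The 2 h tables give no value per library, so no comparison was made at 2 h.

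Counts were summed per gene, and CPM were scaled with TMM over the 8 libraries of the 1 h experiment. Levels were compared between 3 untreated and 3 emetine libraries with s4U with the quasi-likelihood test of edgeR 4.0.16 (R 4.3.3), on genes whose counts summed to over 100, and the s4U term over 8 libraries with emetine as covariate. The standard error of a fold change was taken from its F statistic. The fraction new was the weight of a 2-component binomial mixture fitted by maximum likelihood (scipy 1.17.1 and numpy 2.4.6 in Python 3.11.15), with the background rate from the library without s4U of the same treatment. Its logit, and log2(CPM + 0.5) of labeled and unlabeled RNA, were compared with limma 3.58.1 (trend, robust) on the 10763 genes that had 100 or more reads in every one of the 6 libraries. P-values are two-sided and adjusted by the Benjamini-Hochberg method over all genes tested. A half-life in hours was computed as −ln(2)/ln(1 − fraction new). No molecular identifiers are described, so intervals cover counting error only, and their precision follows from the reads given beside each value. Of the 19222 genes, 17152 matched a GENCODE 44 symbol, and lengths are of the canonical transcript. The mixture and the tests of level and fraction new were tested on simulated data, and figures were drawn with matplotlib 3.10.9.

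The members and the lists were chosen with earlier results of these data known. The genes named are the 7 members, every list gene with an adjusted p under 0.05 for level or fraction new, otherwise the gene with the largest absolute log2 fold change of each list, the 5 nearest profiles and the protein-coding genes within 300 kb. Alternatives were DESeq2 1.42.0, other scalings and filters, a length and GC trend removed with mgcv 1.9.3, other read minimums, rates and pseudocounts, the replicate number as a block, and leaving out each library.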

Additional observations from a re-analysis of the deposited data

How the results depend on the processing

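Leaving aside TNFRSF10D, whose emetine values are given without a test, no member was called in level, labeled RNA or unlabeled RNA under any alternative tried. For s4U no member was called, TNFRSF10D included. These counts thus stayed at 0. In fraction new the count was 0 to 1 with a library left out, beside 0.995% to 23.8% of all genes. The 1 was TNFRSF1A without untreated replicate 1, the setting where 23.8% of all genes were called. The log2 fold change of TNFRSF10D stayed negative in all alternatives, from −1.51 to −1.37 with a library left out. With spike-in scaling it was −0.71 with a wide SE of 0.491, and the median of all genes shifted to 0.71. Small log2 fold changes turned sign: FAS to −0.012 and TNFRSF1A to 0.021 with the length and GC trend removed, TNFRSF1A to 0.62 and TNFSF12 to 0.19 with spike-in scaling, and, with a library left out, TNFRSF1A (−0.095 to 0.018), TNFRSF12A (−0.021 to 0.29), TNFRSF21 in the logit of its fraction new (−0.016 to 0.27) and TNFRSF10B in its s4U difference (−0.041 to 0.020). The cause was not tested. The pathway list genes called in level numbered 1 with spike-in scaling, beside 0.436% of all genes, and 6 with the length and GC trend removed, beside 8.64%. With a library left out they numbered 0 to 9, beside 0.0294% to 13.9% of all genes. Those called in fraction new then numbered 0 to 16, beside 0.995% to 23.8% of all genes. These list counts were added as alternatives after seeing the data.

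Deviations of same-numbered libraries from their group means were correlated at 0.0895, 0.00688 and −0.137 over 13067 genes. Each mean rests on 3 libraries, and the emetine deviations went with transcript length. These correlations therefore cannot settle whether the replicate numbers pair the libraries. With the replicate number as a block, 0 other members were called in level, fraction new, labeled or unlabeled RNA. The shares of all genes called were 0.566%, 6.38%, 0.938% and 3.33%, in the same order. TNFRSF10D was then at −1.42 in level, and all genes called in level numbered 75 higher and 3 lower in place of 365 and 6. Depth limits FAS, with 46 to 122 reads per library, and TNFRSF10A, with 0 to 4, the most.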

Other observations

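Reads of TNFRSF10D that crossed a splice junction made up 7.91%, 7.09% and 7.87% of its reads in the untreated libraries and 1.83%, 8.61% and 21.2% in the emetine libraries, with the highest share in emetine replicate 3. In that library the share was also the highest of the 6 for TNFRSF10B, at 18.7% against 5.67% to 9.76%, for FAS, at 31.7% against 10.9% to 17.2%, for TNFRSF12A, at 50% against 32.3% to 38.6%, and for TNFRSF21, at 20.2% against 9.83% to 17.2%, but not for TNFRSF1A, at 50.8% against 37.1% to 54.1%. These shares were not tested.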
